A study of Mus musculus with 6 samples.

Results

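The microglial marker genes are 30 genes that microglia, the resident macrophages of the brain, express more than neurons and other glia do. Their levels were described in the hippocampus of 6 mice, 1 Affymetrix expression array per mouse. All 30 had a probe set annotated to that gene alone, 43 probe sets in all, out of 45037 probe sets and 18193 genes, and each gene is given by its brightest probe set, judged by the average of the 6 arrays. The 3 mice of genotype Dp(11)17/+ carry a duplication of a segment of chromosome 11 that models Potocki-Lupski syndrome, a human developmental disorder, and the 3 mice of genotype +/+ are wild type. All 6 are on the C57BL/6-Tyr c-Brd background and are labelled male and 11 to 14 weeks old, and the Dp(11)17/+ mice are heterozygous for the duplication. The labels do not say whether mice shared a litter. Values are on the log2 scale, so a difference of 1 is a 2-fold change, and values under 6 are called dim here.

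Microglia survey the tissue with motile processes. Their identity rests on colony-stimulating factor 1 receptor signalling and on the myeloid transcription factors PU.1 and IRF8. They sense neurons and damage through the fractalkine receptor and purinergic receptors, tag and clear material with complement C1q and its receptors, signal through adaptors that carry an immunoreceptor tyrosine-based activation motif (ITAM), and degrade what they take up in lysosomes. In bulk tissue such as this, fewer cells of a type and less RNA per cell cannot be told apart.

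Several arrays stood apart before any marker was considered. Dp(11)17/+ replicate 1 is labelled male, yet Xist, the long RNA that coats a silenced X, stood at 9.13 on the log2 scale there, against 3.06 to 3.69 in the other 5 mice, and the Y-linked gene Kdm5d had 2.47, against 4.70 to 5.06. Dp(11)17/+ replicate 3 had a mean over 9 striatal genes 2.20 above the +/+ mean and a mean over 8 genes of thalamus and habenula 2.43 above it, and its means over CA1 pyramidal and dentate granule genes lay at -1.24 and -1.85. For striatum the mean was at 1.31 in Dp(11)17/+ replicate 1, with 0.01 for thalamus and habenula, -0.57 for CA1 and -0.93 for dentate. The same lists were at -0.21, -0.20, 0.31 and 0.72 in Dp(11)17/+ replicate 2. In +/+ replicates 1, 2 and 3 striatum was at -0.28, 0.48 and -0.20, and thalamus and habenula at -0.02, 0.24 and -0.22. For CA1 these mice were at -0.07, -0.06 and 0.13, and for dentate at 0.20, -0.03 and -0.17. The main counts over the markers are therefore also given without Dp(11)17/+ replicate 1, without replicate 3 and without both. No marker lies in the duplicated segment, taken as the genes from Cops3 to Rnf112, and the 1 marker on chromosome 11, Cd68, lies outside it.

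No marker passed the test of Dp(11)17/+ against +/+ mice, and most differences were small. By limma with Benjamini-Hochberg adjustment over 45037 probe sets, 0 of the 30 markers passed 0.05, where 0.0% of all probe sets did, and the adjusted p of the markers lay between 0.994 and 0.998. Of the 30, 22 had a higher mean in Dp(11)17/+ mice and 8 a lower one, while 41.7% of all genes were higher. Of the 17 brighter markers, with a mean of 6 or more, 15 were higher, against 40.9% of all genes that bright. The median log2 fold change, Dp(11)17/+ minus +/+, was 0.09 over the markers and -0.02 over all genes. An unadjusted p under 0.05 was given by 3 markers, P2ry12 and Csf1r higher and Lyz2 lower, where 3.17% of all genes had one, 1.15% higher and 2.01% lower. The same 3 were the markers whose groups did not overlap, as those of 8.29% of all genes did not, 2 with all Dp(11)17/+ mice above all +/+ mice, as 2.7% of all genes had, and 1 below, as 5.59% had. The 95% confidence interval stayed within a 1.5-fold change, 0.58 on the log2 scale, in both directions for 26 of the 30 markers and within a 2-fold change for 30 of 30. The number of arrays, 3 in each group, limits the precision, and the median half-width of an interval was 0.32.

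**Figure D1:**
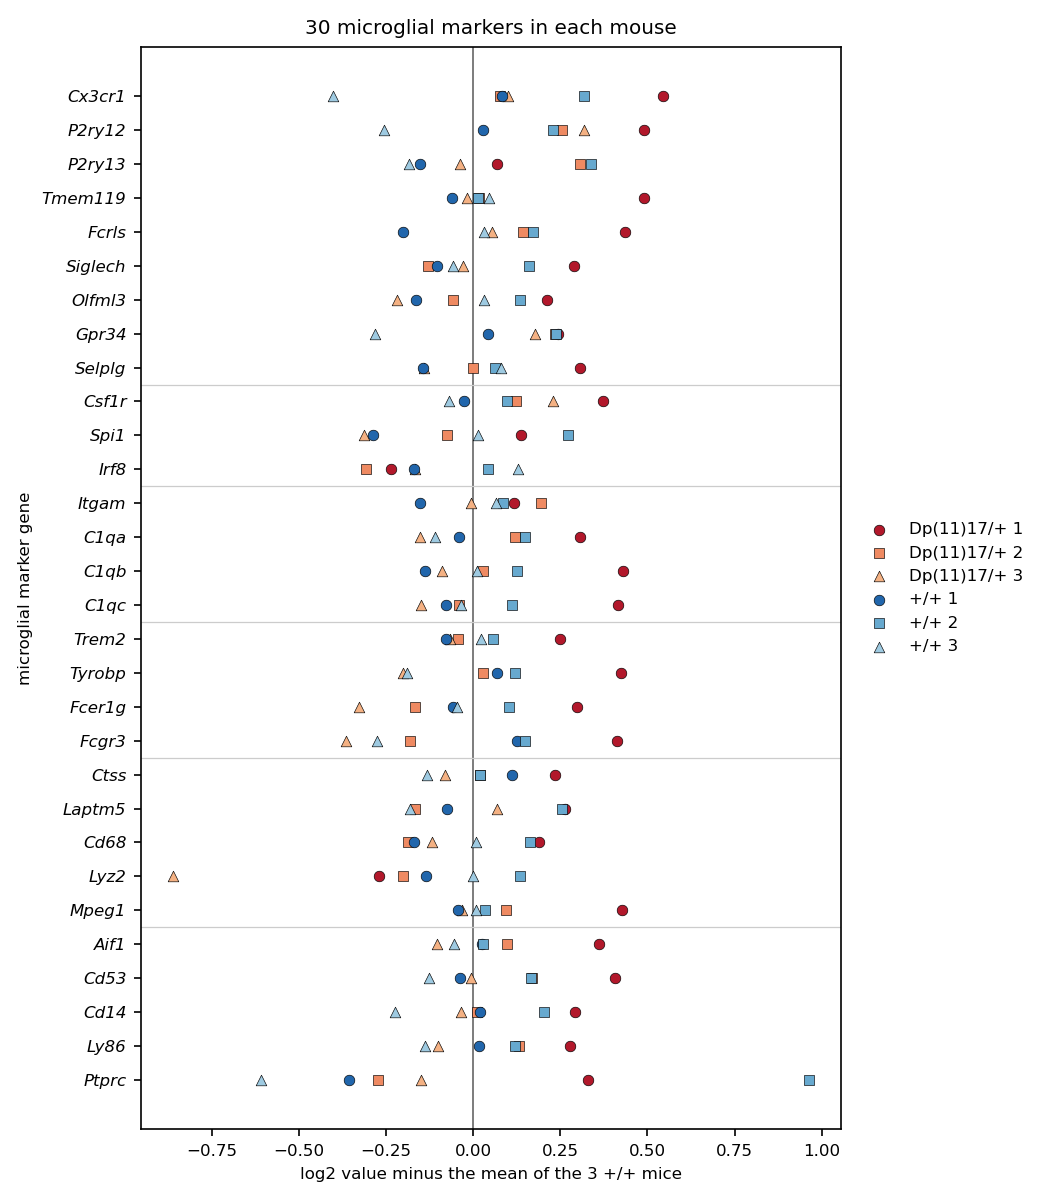
Log2 value of each of the 30 markers in each of the 6 mice, as the difference from the mean of the 3 +/+ mice on the horizontal axis, with genes grouped by role and Dp(11)17/+ mice in red to orange, +/+ mice in blue. The circle of Dp(11)17/+ replicate 1 lies farthest to the right for 24 of the 30 genes.

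The markers varied together by mouse. Dp(11)17/+ replicate 1 had the highest value of all 6 mice for 24 of the 30 markers, and for 17 of the 17 brighter ones, while it had the highest value for 10.6% of all genes and for 11.9% of all genes with a mean of 6 or more. It was the lowest mouse for 0 of the 30. Over the 17 brighter markers it lay 0.21 (Olfml3) to 0.55 (Cx3cr1) above the +/+ mean, with a median of 0.41. This is the mouse whose Xist and Kdm5d values go against its male label, and whether this bears on the markers was not tested.

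The other Dp(11)17/+ mice lay lower. Of these, replicate 2 lay above all +/+ mice for 7 markers, within their range for 18 and below it for 5, with a median difference of 0.02 from the +/+ mean. Replicate 3 lay above for 2, within for 19 and below for 9, with a median of -0.09. Without Dp(11)17/+ replicate 1, 10 of the 30 markers were higher and 20 lower, and their median log2 fold change turned to -0.03, while 43.2% of all genes were higher. Without Dp(11)17/+ replicate 3, 28 were higher with a median of 0.17, and with both of these mice left out 17 were higher with a median of 0.02.

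The +/+ mice also differed among themselves across the markers. Of the 3, +/+ replicate 2 was the highest for 26 of the 30 markers, where it was the highest of them for 32.2% of all genes, and lay above the mean of its group for 30 of 30, while it was the lowest of all 6 mice for 0. The lowest of all 6 mice was Dp(11)17/+ replicate 3 for 9 of the 30 markers, where it was lowest for 22.8% of all genes. It was +/+ replicate 1 for 7, against 13.2% of all genes, and +/+ replicate 3 for 11, against 15.1%. The mean difference from the +/+ mean over the 30 markers was 0.28, 0.01 and -0.09 in Dp(11)17/+ replicates 1, 2 and 3, and -0.07, 0.17 and -0.10 in +/+ replicates 1, 2 and 3. The genotypes therefore overlapped in this mean, with Dp(11)17/+ replicate 1 and +/+ replicate 2 at the upper end. As a sign of RNA quality, the 3' minus 5' difference of the actin controls was 1.69, 1.47 and 1.74 in Dp(11)17/+ replicates 1, 2 and 3, and 1.63, 1.62 and 1.45 in +/+ replicates 1, 2 and 3, and its part in the marker levels was not tested.

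**Figure D2:**
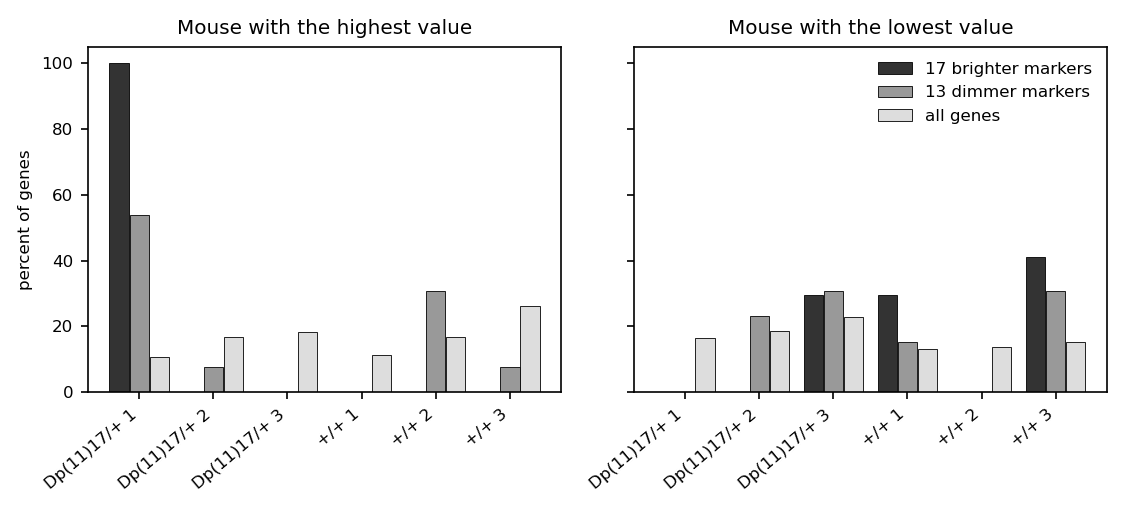
Percent of genes for which each mouse had the highest (left) or the lowest (right) value of the 6 mice, for the 17 brighter markers (mean log2 value at least 6), the 13 dimmer ones and all 18193 genes. Dp(11)17/+ replicate 1 had the highest value for 100% of the brighter markers and for 10.6% of all genes.

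Among the surface and sensing receptors, 8 of 9 had a higher mean in Dp(11)17/+ mice, and 5 of 9 without Dp(11)17/+ replicate 1. P2ry12, the ADP receptor that steers microglial processes towards injury, had log2 values of 6.79, 6.55 and 6.61 in Dp(11)17/+ replicates 1, 2 and 3, against 6.32, 6.52 and 6.04 in +/+ replicates 1, 2 and 3. Every Dp(11)17/+ mouse lay above every +/+ mouse, the nearest pair being Dp(11)17/+ replicate 2 and +/+ replicate 2. Its log2 fold change was 0.35 (SE 0.14), the highest of the 30, with an unadjusted p of 0.0361 by limma and a 95% interval of 0.03 to 0.68. It was 0.29 without Dp(11)17/+ replicate 1, with an unadjusted p of 0.117, 0.25 with Dp(11)17/+ replicate 2 as the only mouse of its group, and 0.23 without +/+ replicate 3.

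P2ry13, a related ADP receptor that lies near P2ry12 on chromosome 3, had values of 5.54, 5.78 and 5.44 in the Dp(11)17/+ mice, against 5.32, 5.81 and 5.29 in the +/+ mice. The highest and the lowest of these were both +/+ mice, so the groups overlapped, and the log2 fold change was 0.11 (SE 0.16). Cx3cr1, the receptor for the neuronal chemokine fractalkine, had values of 6.90, 6.43 and 6.45 in the Dp(11)17/+ mice, against 6.44, 6.67 and 5.95 in the +/+ mice. The highest was Dp(11)17/+ replicate 1 and the lowest +/+ replicate 3, with the other 4 mice between them. Its log2 fold change of 0.24 (SE 0.21) had an interval of -0.25 to 0.73, and it was 0.09 without Dp(11)17/+ replicate 1. A dim second probe set of Cx3cr1 gave 0.04.

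Tmem119, a membrane protein used to tell microglia from other macrophages, had values of 6.52, 6.05 and 6.02 in the Dp(11)17/+ mice, against 5.97, 6.05 and 6.08 in the +/+ mice. Only Dp(11)17/+ replicate 1 stood out, and the other 5 mice lay between 5.97 and 6.08. Its log2 fold change of 0.16 (SE 0.14) was accordingly near 0 without that mouse. Fcrls, a microglial scavenger receptor related to Fc receptors, had values of 7.54, 7.25 and 7.16 in the Dp(11)17/+ mice, against 6.91, 7.28 and 7.14 in the +/+ mice, and a log2 fold change of 0.21 (SE 0.14), or 0.10 without Dp(11)17/+ replicate 1. Gpr34, an X-linked receptor for lysophosphatidylserine, had values of 4.74, 4.73 and 4.67 in the Dp(11)17/+ mice, against 4.54, 4.73 and 4.21 in the +/+ mice. Of these, +/+ replicate 3 was low and the other 5 mice were close together, with a log2 fold change of 0.22 (SE 0.13).

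Siglech, a member of the family of sialic acid-binding lectins, had values of 5.86, 5.44 and 5.54 in the Dp(11)17/+ mice, against 5.47, 5.73 and 5.51 in the +/+ mice. Selplg, the ligand of the selectins, had values of 7.23, 6.92 and 6.78 in the Dp(11)17/+ mice, against 6.78, 6.98 and 6.999 in the +/+ mice. Olfml3, a secreted olfactomedin-like protein, had values of 7.02, 6.75 and 6.59 in the Dp(11)17/+ mice, against 6.64, 6.94 and 6.84 in the +/+ mice. In each of these 3 genes Dp(11)17/+ replicate 1 was the highest mouse and the other 2 Dp(11)17/+ mice lay below +/+ replicate 2. The log2 fold changes were 0.04 (SE 0.13), 0.06 (SE 0.13) and -0.02 (SE 0.13).

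**Figure D3:**
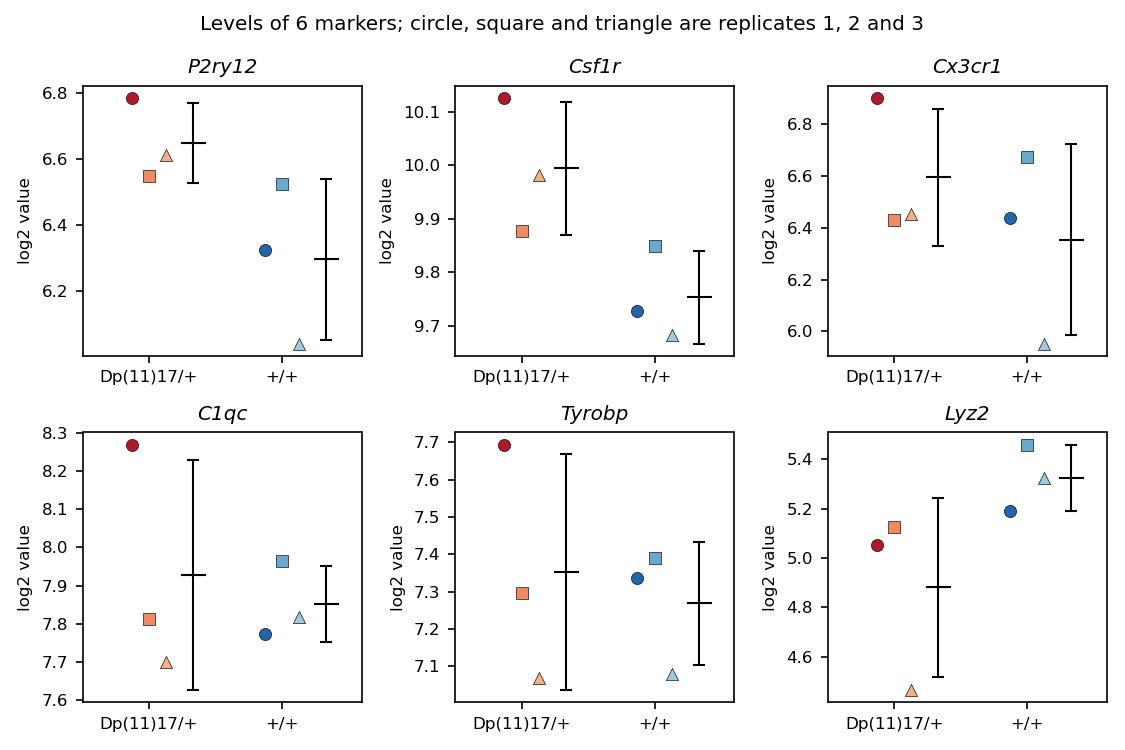
Log2 values of P2ry12, Csf1r, Cx3cr1, C1qc, Tyrobp and Lyz2 by genotype, each point a mouse, with the bar at the mean and its SD (n = 3), on an axis that does not start at 0. P2ry12 and Csf1r have all Dp(11)17/+ mice above all +/+ mice, Lyz2 has all below, and in the other 3 genes Dp(11)17/+ replicate 1 is the highest of 6 and the groups overlap.

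Of the growth factor receptor and the transcription factors, Csf1r was higher and both factors lower in the mean. Csf1r, the receptor for CSF1 and IL-34 on which microglial survival depends, had log2 values of 10.12, 9.88 and 9.98 in Dp(11)17/+ replicates 1, 2 and 3, against 9.73, 9.85 and 9.68 in +/+ replicates 1, 2 and 3. Every Dp(11)17/+ mouse lay above every +/+ mouse, though narrowly so for Dp(11)17/+ replicate 2 and +/+ replicate 2. The log2 fold change was 0.24 (SE 0.10), with an unadjusted p of 0.0402 by limma and a 95% interval of 0.01 to 0.47. Its other 2 probe sets gave 0.06 and 0.16, and without Dp(11)17/+ replicate 1 the brightest gave 0.18 with an unadjusted p of 0.136.

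Spi1, which encodes PU.1, was dim, with values of 4.33, 4.11 and 3.88 in the Dp(11)17/+ mice, against 3.90, 4.46 and 4.20 in the +/+ mice. The 2 lowest mice were Dp(11)17/+ replicate 3 and +/+ replicate 1, and the log2 fold change was -0.08 (SE 0.17). Irf8, its partner in microglial development, was dim too, with values of 3.64, 3.57 and 3.71 in the Dp(11)17/+ mice, against 3.71, 3.92 and 4.01 in the +/+ mice. The groups overlapped slightly, with Dp(11)17/+ replicate 3 just above +/+ replicate 1. Irf8 lay below the median of the array in all Dp(11)17/+ mice and in +/+ replicate 1, and above it in +/+ replicates 2 and 3. The log2 fold change of Irf8 was -0.24 (SE 0.10), with an unadjusted p of 0.0515 by limma, and its second, dimmer probe set gave -0.07.

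The complement genes were all higher in the mean with 6 mice, by 0.08 to 0.12, and 1 of 4 was higher without Dp(11)17/+ replicate 1. C1qa, C1qb and C1qc encode the 3 chains of C1q, which starts the classical complement pathway and marks synapses for removal. C1qa had log2 values of 8.50, 8.31 and 8.04 in the Dp(11)17/+ mice, against 8.15, 8.34 and 8.08 in the +/+ mice. C1qb had values of 7.997, 7.60 and 7.48 in the Dp(11)17/+ mice, against 7.43, 7.69 and 7.58 in the +/+ mice. C1qc had values of 8.27, 7.81 and 7.70 in the Dp(11)17/+ mice, against 7.77, 7.96 and 7.82 in the +/+ mice. In all 3 chains Dp(11)17/+ replicate 1 was the highest mouse and +/+ replicate 2 the highest +/+ mouse, and Dp(11)17/+ replicate 3 lay below the +/+ mean. Their log2 fold changes were 0.09 (SE 0.14), 0.12 (SE 0.15) and 0.08 (SE 0.15), and without Dp(11)17/+ replicate 1 they were -0.02, -0.03 and -0.10. The other 2 probe sets of C1qb gave 0.19 and 0.21. Itgam, the alpha chain of complement receptor 3, lay below the median of the array in every mouse, at 3.28, 3.36 and 3.16 in the Dp(11)17/+ mice, against 3.01, 3.25 and 3.23 in the +/+ mice.

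Among the ITAM receptors and adaptors, 2 of 4 were higher in the mean with 6 mice and 0 of 4 without Dp(11)17/+ replicate 1. Tyrobp, the adaptor DAP12 that carries the ITAM for TREM2, had log2 values of 7.69, 7.30 and 7.07 in the Dp(11)17/+ mice, against 7.34, 7.39 and 7.08 in the +/+ mice, with a log2 fold change of 0.08 (SE 0.17). Trem2, the lipid-sensing receptor that signals through it, had values of 5.47, 5.18 and 5.16 in the Dp(11)17/+ mice, against 5.14, 5.28 and 5.24 in the +/+ mice, with a log2 fold change of 0.05 (SE 0.11). Receptor and adaptor were both highest in Dp(11)17/+ replicate 1, and the other 5 mice overlapped.

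Fcer1g, the common gamma chain of Fc receptors and a second ITAM adaptor, had values of 7.06, 6.60 and 6.44 in the Dp(11)17/+ mice, against 6.71, 6.87 and 6.72 in the +/+ mice. Fcgr3, an Fc receptor for immunoglobulin G that uses this chain, had values of 6.29, 5.70 and 5.51 in the Dp(11)17/+ mice, against 6.001, 6.02 and 5.60 in the +/+ mice. Both were highest in Dp(11)17/+ replicate 1 and lowest in Dp(11)17/+ replicate 3, so that the extremes were in 1 genotype. The log2 fold changes were -0.06 (SE 0.16) and -0.04 (SE 0.22). Without Dp(11)17/+ replicate 1 they were -0.25 and -0.27, with unadjusted p of 0.0631 and 0.141 by limma.

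The lysosome and phagosome genes held the lowest fold change of the 30. Lyz2, lysozyme M of macrophages, had log2 values of 5.05, 5.12 and 4.46 in Dp(11)17/+ replicates 1, 2 and 3, against 5.19, 5.46 and 5.32 in +/+ replicates 1, 2 and 3. Every Dp(11)17/+ mouse lay below every +/+ mouse, and Dp(11)17/+ replicate 3 lay well below the other 5 mice. The mean was 4.88 ± 0.36 in Dp(11)17/+ mice and 5.32 ± 0.13 in +/+ mice (SD, n = 3 each). The log2 fold change was -0.44 (SE 0.18), with an unadjusted p of 0.0439 by limma and a 95% interval of -0.87 to -0.02, and it was -0.24 without Dp(11)17/+ replicate 3 and -0.20 with replicate 2 as the only Dp(11)17/+ mouse. Lyz1, a near-identical copy whose transcripts the probes may also bind, had 6.09, 5.98 and 6.03 in the Dp(11)17/+ mice, against 6.41, 6.65 and 6.28 in the +/+ mice, a log2 fold change of -0.41 (SE 0.11). In both genes the groups did not overlap, and how much of the signal each probe set takes from the other gene was not tested.

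Of the 5 genes of this role, 3 were higher in the mean with 6 mice and 1 without Dp(11)17/+ replicate 1. Ctss, the lysosomal protease cathepsin S, had log2 values of 9.55, 9.33 and 9.23 in the Dp(11)17/+ mice, against 9.42, 9.33 and 9.18 in the +/+ mice, with a log2 fold change of 0.06 (SE 0.11). Mpeg1, the pore-forming protein perforin-2 of macrophages, had 6.51, 6.18 and 6.05 in the Dp(11)17/+ mice, against 6.04, 6.12 and 6.09 in the +/+ mice, with a log2 fold change of 0.16 (SE 0.13), or 0.03 without Dp(11)17/+ replicate 1. The highest of 6 in both was Dp(11)17/+ replicate 1. Cd68, a lysosomal glycoprotein, had 6.01, 5.63 and 5.70 in the Dp(11)17/+ mice, against 5.65, 5.98 and 5.83 in the +/+ mice, and Dp(11)17/+ replicate 2 was the lowest mouse. Laptm5, a lysosomal membrane protein of blood-derived cells, had 7.10, 6.67 and 6.90 in the Dp(11)17/+ mice, against 6.76, 7.09 and 6.66 in the +/+ mice, and Dp(11)17/+ replicate 1 and +/+ replicate 2 were level at the top. The log2 fold changes were -0.04 (SE 0.13) for Cd68 and 0.06 (SE 0.15) for Laptm5, whose 4 other probe sets gave -0.09 to 0.09.

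Of the leukocyte surface and cytoskeletal genes, 4 of 5 were higher in the mean with 6 mice and 2 of 5 without Dp(11)17/+ replicate 1. Ly86, the partner of a Toll-like receptor homologue, had log2 values of 8.11, 7.96 and 7.73 in the Dp(11)17/+ mice, against 7.85, 7.95 and 7.69 in the +/+ mice. Cd53, a tetraspanin of leukocytes, had 6.51, 6.27 and 6.09 in the Dp(11)17/+ mice, against 6.06, 6.26 and 5.97 in the +/+ mice. Both were highest in Dp(11)17/+ replicate 1 and lowest in +/+ replicate 3. Aif1, the actin-bundling protein IBA1 that is a common microglial stain, had 5.63, 5.36 and 5.16 in the Dp(11)17/+ mice, against 5.29, 5.29 and 5.21 in the +/+ mice. Cd14, a co-receptor for bacterial lipopolysaccharide, had 4.65, 4.37 and 4.32 in the Dp(11)17/+ mice, against 4.38, 4.56 and 4.14 in the +/+ mice. The highest was again Dp(11)17/+ replicate 1, and Dp(11)17/+ replicate 3 lay below the +/+ mean in both. The log2 fold changes were 0.10 (SE 0.12) for Ly86, 0.19 (SE 0.13) for Cd53, 0.12 (SE 0.12) for Aif1 and 0.09 (SE 0.14) for Cd14. Ly86 was at 0.02 and Cd53 at 0.08 without Dp(11)17/+ replicate 1.

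Ptprc, the leukocyte phosphatase CD45, had the widest spread of the 30, at 4.40, 3.80 and 3.92 in Dp(11)17/+ replicates 1, 2 and 3, against 3.72, 5.04 and 3.47 in +/+ replicates 1, 2 and 3. It was dim and its highest and lowest mice were both +/+, with +/+ replicate 2 far above the others. Its log2 fold change was -0.03 (SE 0.40) and its interval -0.97 to 0.90, the widest of the markers. Without +/+ replicate 2 the log2 fold change was 0.45, and it ranged from -0.33 to 0.45 with single mice left out. A second, dimmer probe set gave -0.06.

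**Figure D4:**
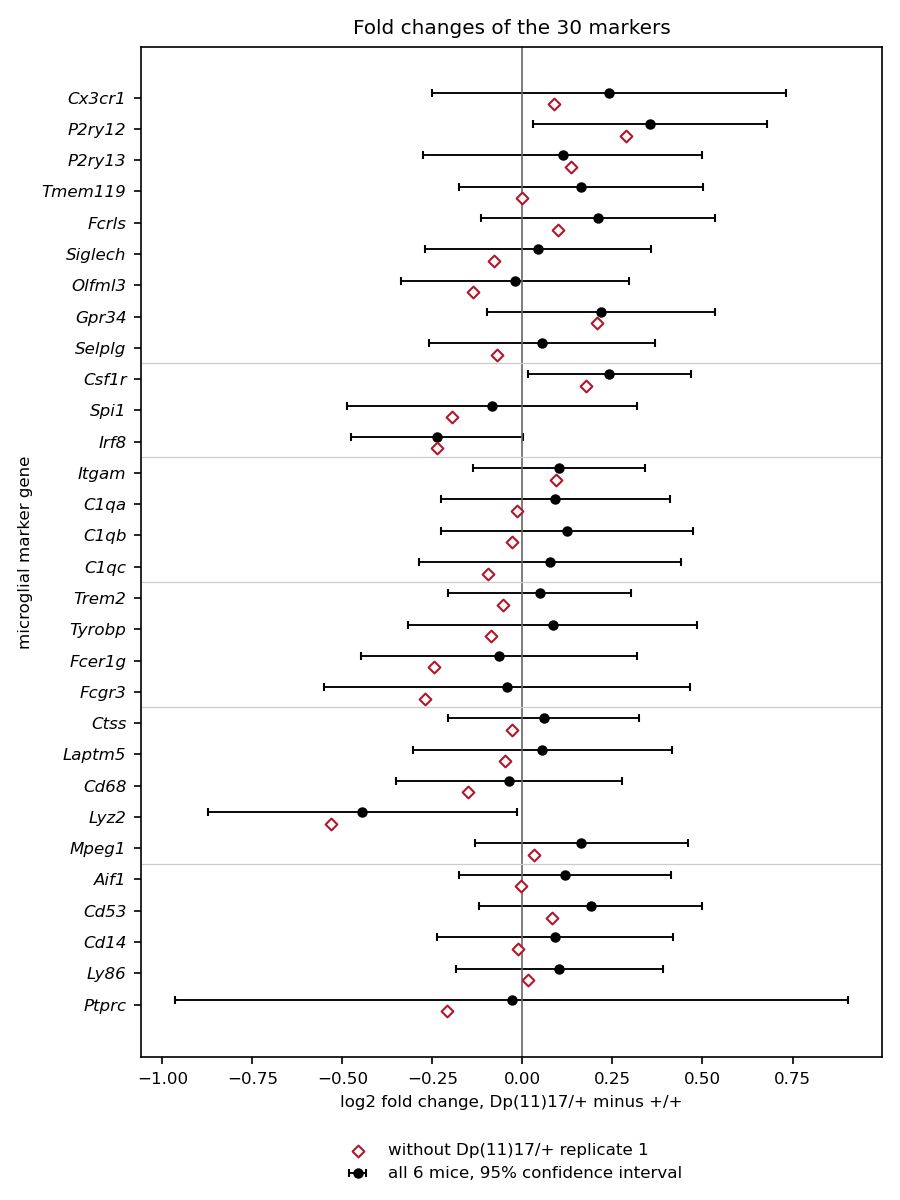
Log2 fold change, Dp(11)17/+ minus +/+, of each marker with its 95% confidence interval from limma on 6 mice (filled circles), and the value without Dp(11)17/+ replicate 1 (open diamonds). Leaving that mouse out leaves 10 of the 30 above 0, and the intervals of P2ry12, Csf1r and Lyz2 do not hold 0.

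The upstream sequences of the markers were searched for GAGGAAGT, a PU.1 site, and for GGAANNGAA, a composite of PU.1 and IRF8 sites, on both strands. The 2 motifs can share the letters GGAA. RefSeq promoters of the build GRCm38.p6 were at hand for 22 of the 30 markers, 25 promoters in all, and the 250 bases before the start were read. GAGGAAGT was found in 1 of the 25, that of C1qc, where 2.44% of all 32851 promoters hold it, and GGAANNGAA in 0 of the 25, where 6.99% hold it. The C1qc promoter is shown for that match, whose 8 bases are in capitals and run from 195 to 188 bases before the start on the opposite strand. Those of P2ry12 and Lyz2, chosen after their values were seen, are shown as the promoters of the markers with the highest and the lowest fold change, and they hold neither motif in these 250 bases. They lie on the minus strand at chr4:136892915-136893164, chr3:59262986-59263235 and chr10:117282273-117282522 and are written 5′ to 3′.
C1qc: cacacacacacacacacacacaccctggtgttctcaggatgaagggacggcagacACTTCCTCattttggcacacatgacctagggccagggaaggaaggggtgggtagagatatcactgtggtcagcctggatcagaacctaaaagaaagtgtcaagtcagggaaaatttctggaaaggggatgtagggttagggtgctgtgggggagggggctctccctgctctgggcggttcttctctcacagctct
P2ry12: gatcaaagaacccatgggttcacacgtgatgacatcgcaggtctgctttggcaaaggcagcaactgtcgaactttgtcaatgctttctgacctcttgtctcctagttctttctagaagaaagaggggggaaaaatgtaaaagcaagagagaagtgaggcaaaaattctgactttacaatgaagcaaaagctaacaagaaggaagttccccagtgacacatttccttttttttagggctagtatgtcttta
Lyz2: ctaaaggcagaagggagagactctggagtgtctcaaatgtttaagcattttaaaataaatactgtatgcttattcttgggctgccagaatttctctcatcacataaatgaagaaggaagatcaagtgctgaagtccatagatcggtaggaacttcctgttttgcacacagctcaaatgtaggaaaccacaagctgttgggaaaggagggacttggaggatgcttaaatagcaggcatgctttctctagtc
A match is a description of the letters and not of binding, which was not measured in these mice.

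Other genes of microglial biology gave few values past the unadjusted threshold, which 3.17% of all genes passed, and 0 past the adjusted one. Of 20 further microglial genes 18 were measured, 12 higher and 6 lower with a median of 0.07 on the log2 scale, while 41.7% of all genes were higher. Of the 18, 3 had an unadjusted p under 0.05 by limma, all higher, as 1.15% of all genes had. Mertk, a receptor kinase for clearing dying cells that astrocytes also express, had log2 values of 7.10, 6.85 and 6.79 in the Dp(11)17/+ mice, against 6.56, 6.19 and 6.15 in the +/+ mice. All Dp(11)17/+ mice lay above all +/+ mice, and the log2 fold change was 0.61 (SE 0.14) with an unadjusted p of 0.00306 and an adjusted p of 0.994 by limma. For Vsir, an immune checkpoint gene, the log2 fold change came to 0.43 (SE 0.15), and for Sparc, a matrix protein of several cell types, to 0.47 (SE 0.18). In this list Dp(11)17/+ replicate 1 was the highest mouse for 6 of 18 genes, against 24 of 30 among the markers and 10.6% of all genes. The lists differ in brightness, as 5 of the 18 had a mean of 6 or more, against 17 of the 30 markers. Among the 13 dimmer markers Dp(11)17/+ replicate 1 was the highest mouse for 7. The difference between the lists was not tested.

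The ligands that reach microglia were measured as well. Of 10 ligands and inhibitory pairs, 3 were higher and 7 lower, with a median of -0.09 and 0 at an unadjusted p under 0.05, where 3.17% of all genes had one. Cx3cl1, the ligand of CX3CR1, had log2 values of 10.15, 10.001 and 10.35 in the Dp(11)17/+ mice, against 9.92, 10.08 and 9.85 in the +/+ mice, and a log2 fold change of 0.22 (SE 0.12), or 0.13 without Dp(11)17/+ replicate 3. Its highest mouse was Dp(11)17/+ replicate 3, not the mouse with the highest Cx3cr1. The log2 fold changes of Tgfb2 and Tgfb3, transforming growth factors, were -0.46 (SE 0.34) and -0.28 (SE 0.21). That of Tgfb2 was -0.20 without Dp(11)17/+ replicate 3 and that of Tgfb3 -0.44 without Dp(11)17/+ replicate 1.

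Among further complement, ITAM and reactive genes, 2 had an unadjusted p under 0.05, 1 of them higher, where 3.17% of all genes had one. Of 11 complement genes outside the markers 8 were measured, 4 higher and 4 lower, all with a mean under 6, and Cd55, an inhibitor of complement, had a log2 fold change of -0.24 (SE 0.09) with an unadjusted p of 0.0362 by limma. C5ar1 and C1s1 followed at -0.08 (SE 0.11) and 0.06 (SE 0.10), or -0.03 and 0.12 without Dp(11)17/+ replicate 1. Of 13 genes of ITAM signalling 10 were measured, 4 higher and 6 lower, with 0 at an unadjusted p under 0.05 and the smallest p for Fcgr2b, the inhibitory Fc receptor, at 0.25 (SE 0.12), Lcp2 at -0.23 (SE 0.14) and Fcgr1 at -0.14 (SE 0.11). Fcgr2b was at 0.14 without Dp(11)17/+ replicate 3. Of 16 genes that reactive microglia raise 15 were measured, 5 higher and 10 lower, and 1 had an unadjusted p under 0.05, Axl, a receptor kinase, at 0.21 (SE 0.08). Clec7a and Cst7, dim in every mouse, had -0.21 (SE 0.11) and -0.11 (SE 0.08).

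Inflammatory genes, lysosomal genes and myeloid transcription factors each had 0 members at an unadjusted p under 0.05, where 3.17% of all genes had one. Of 18 inflammatory genes 17 were measured, 5 higher and 12 lower with a median of -0.04, and the smallest p were those of Ptgs2 at -0.49 (SE 0.22), Nfkbia at 0.30 (SE 0.26) and Il6 at -0.12 (SE 0.11). Of 12 lysosomal genes 11 were measured, 7 higher and 4 lower with a median of 0.01, led by Grn at 0.12 (SE 0.08), Npc2 at 0.17 (SE 0.16) and Ctsl at 0.16 (SE 0.15). Of 10 transcription factors 9 were measured, 3 higher and 6 lower with a median of -0.10, led by Nfe2 at -0.17 (SE 0.09), Irf5 at 0.20 (SE 0.11) and Cebpb at -0.43 (SE 0.30). Without Dp(11)17/+ replicate 3, Ptgs2 was at -0.23, Il6 at -0.06, Ctsl at 0.07 and Cebpb at -0.16, and without Dp(11)17/+ replicate 1 Il6 was at -0.23.

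The measured markers of other myeloid and blood cells, which could share the microglial genes, were at low levels. Border macrophages, which line vessels and meninges and express several of the 30 genes, had 8 genes measured, all with means under 6, and the mean over their genes differed from the +/+ mean by -0.01, -0.001 and -0.03 in Dp(11)17/+ replicates 1, 2 and 3, and by 0.01, 0.09 and -0.10 in +/+ replicates 1, 2 and 3. Their brightest gene was Pf4, at 4.75, 4.74 and 4.68 in the Dp(11)17/+ mice, against 4.83, 4.88 and 4.75 in the +/+ mice, and the genes with the smallest p were Ms4a7 at -0.25 (SE 0.10), Cd163 at 0.22 (SE 0.13) and F13a1 at 0.19 (SE 0.12). The mouse highest for the microglial markers, Dp(11)17/+ replicate 1, was highest for 0 of these 8 genes, where it was highest for 10.6% of all genes. The highest mouse for 5 of the 8 was +/+ replicate 2, which was highest for 16.8% of all genes.

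Monocyte and neutrophil genes, 7 measured and all dim, were lower in 6, with a median of -0.13, while 41.7% of all genes were higher. Of the 7, 2 had an unadjusted p under 0.05 by limma, both lower, as 2.01% of all genes had. S100a9 had log2 values of 3.33, 3.47 and 3.17 in the Dp(11)17/+ mice, against 3.59, 4.57 and 3.82 in the +/+ mice. All Dp(11)17/+ mice lay below all +/+ mice, with +/+ replicate 2 high, and the log2 fold change was -0.67 (SE 0.24). The log2 fold change came to -0.40 (SE 0.17) for Ngp, a granule protein of neutrophils, and to -0.39 (SE 0.20) for S100a8. Lyz2, which neutrophils and monocytes also express, was lower beside these genes, and their part in it was not tested. Lymphocyte genes, 6 measured, were dim, with 4 higher and 2 lower and a median of 0.01, and Cd3e, their brightest, had a log2 fold change of 0.03 (SE 0.09), with Nkg7 at 0.07 (SE 0.08) and Cd2 at -0.08 (SE 0.09). Cd3e was at 0.07 without Dp(11)17/+ replicate 1 and 0.01 without replicate 3, and Nkg7 at 0.11 without replicate 3. Of 5 erythroid genes 3 were measured, 1 higher and 2 lower, all with a mean under 6. The rest had no probe set annotated to that gene alone, so the low level holds for the measured genes only. Of the 3, 1 had an unadjusted p under 0.05 by limma, lower, as 2.01% of all genes had. All Dp(11)17/+ mice lay below all +/+ mice for 1 of the 3, as for 5.59% of all genes. Alas2, the enzyme of haem synthesis in red cells, had 4.59, 4.78 and 4.82 in the Dp(11)17/+ mice, against 5.06, 5.31 and 4.998 in the +/+ mice, a log2 fold change of -0.40 (SE 0.11) with groups that did not overlap, while Slc4a1 and Hba-a1 had -0.09 (SE 0.08) and 0.10 (SE 0.09).

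Other glia and vessels showed other patterns across the mice. The means over 10 astrocyte genes lay 0.21, 0.12 and 0.09 above the +/+ mean in Dp(11)17/+ replicates 1, 2 and 3, and the median fold change was 0.20 on the log2 scale. In +/+ replicates 1, 2 and 3 these means were at -0.002, 0.04 and -0.04. Of the 10 genes, 9 were higher and 1 lower, the lower one at -0.39, while 41.7% of all genes were higher. An unadjusted p under 0.05 by limma was given by 2, both higher, as by 1.15% of all genes. The smallest p were those of Gjb6, a connexin, at 0.34 (SE 0.10), Fgfr3 at 0.28 (SE 0.11) and Slc1a3 at 0.31 (SE 0.15). Over 7 endothelial genes the Dp(11)17/+ means lay 0.23, 0.05 and 0.30 above the +/+ mean, and those of +/+ replicates 1, 2 and 3 were at 0.01, -0.04 and 0.03. Of these 7, 6 were higher and 1 lower, and 2 had an unadjusted p under 0.05 by limma, both higher, as 1.15% of all genes had. Among these genes Tek was at 0.25 (SE 0.08), Flt1 at 0.39 (SE 0.15) and Pecam1 at 0.22 (SE 0.09). In the astrocyte and endothelial means every Dp(11)17/+ mouse lay above every +/+ mouse, which was not tested. Oligodendrocyte genes were highest in Dp(11)17/+ replicate 3 and +/+ replicate 1, at 0.51 and 0.37 over 8 genes. Of these, 7 were higher and 1 lower, with Mobp at 0.30 (SE 0.16), Mal at 0.33 (SE 0.20) and Mog at 0.42 (SE 0.29). Neuronal genes lay between -0.16 and 0.19 over 8 genes. Of these 8, 4 were higher and 4 lower, with a median log2 fold change of -0.003, while 41.7% of all genes were higher. The smallest p were those of Nefl at -0.13 (SE 0.09), Stmn2 at -0.15 (SE 0.13) and Snap25 at -0.08 (SE 0.10), all lower. Without Dp(11)17/+ replicate 3, Mobp was at 0.19, Mal at 0.18, Mog at 0.18 and Snap25 at -0.15, and without Dp(11)17/+ replicate 1 Mog was at 0.66 and Nefl at -0.07. The highest mouse for the microglial markers, Dp(11)17/+ replicate 1, was thus above the +/+ mean for astrocyte and endothelial genes, as were the other Dp(11)17/+ mice. It was at -0.08 for both oligodendrocyte and neuronal genes. The part of tissue composition in the marker levels was not tested.

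**Figure D5:**
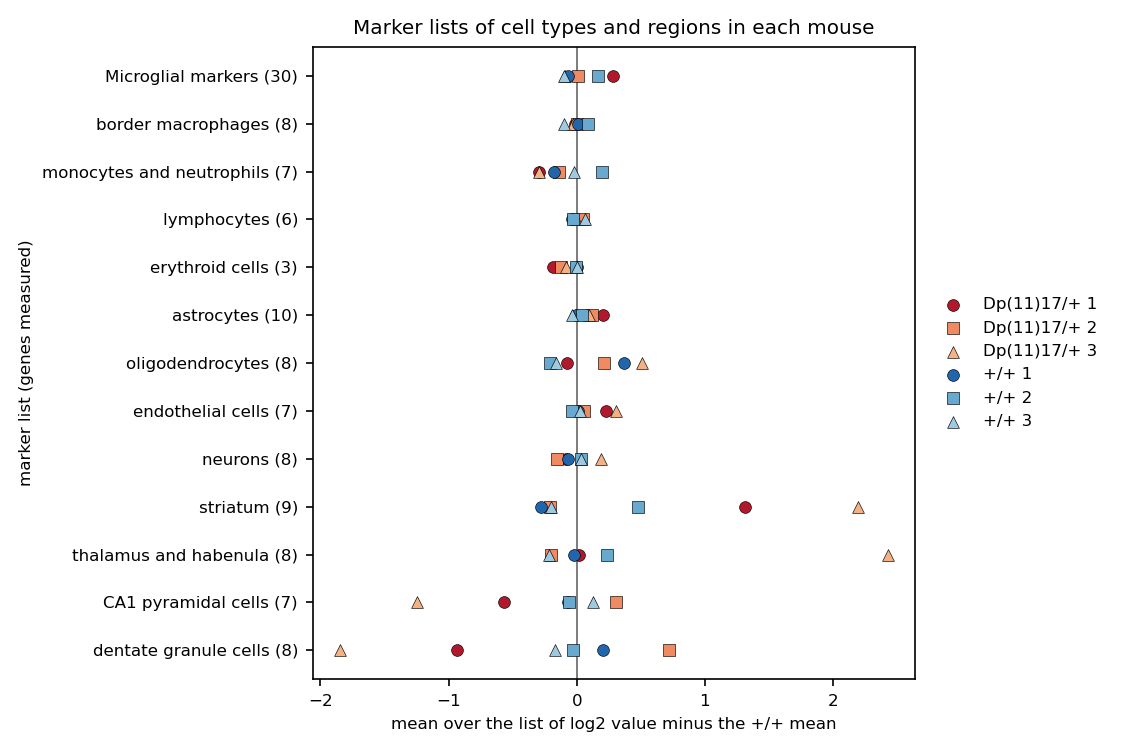
Mean over each marker list of the log2 value minus the mean of the 3 +/+ mice, by mouse, with the number of genes measured in brackets. The microglial markers spread from -0.10 to 0.28, while striatal, thalamic and dentate lists spread further, with Dp(11)17/+ replicate 3 at 2.20, 2.43 and -1.85.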

How the data were processed

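RNA of the hippocampus was hybridized to 6 Affymetrix mouse arrays, 1 per mouse, and the groups were read from the genotype in the labels. The extraction protocol names other organs and the labelling protocol speaks of pools, so the tissue and individual of each sample record were used. The authors deposited log2 values per probe set made with RMA, per the submitters' processing notes, which corrects background, quantile-normalizes the arrays together and summarises probes. Its version and the genome build are not given in the sources used here. Arrays hold no counts, and array medians were 3.74 to 3.79.

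The 64 control probe sets were left out. A gene was given by its brightest probe set annotated to 1 symbol, which 34945 probe sets have, while 932 have several and 9160 none. The fit was limma 3.58.1 in R 4.3.3 over 45037 probe sets, two-sided, with 7.11 degrees of freedom (3.11 prior) and Benjamini-Hochberg adjustment over all of them, and it was tested on simulated data. Tables were made in Python 3.11.15. The 30 markers, the lists and the rule for naming genes (all markers, and in each other list the 3 smallest unadjusted p) were chosen with earlier results of these data known, and a few genes were named after their values were seen. Nothing says that the mice were of separate litters. Alternatives were renormalization, centring, a filter on dim probe sets, other variance models, other probe sets and mice left out. Coordinates and promoters are those of GRCm38.p6 in RefSeq.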

Additional observations from a re-analysis of the deposited data

How the results depend on the processing

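The count of markers past the adjusted threshold was 0 under every alternative that gave a test, and leaving out Dp(11)17/+ replicates 1 and 3 together gave values with no test. No paired analysis was possible because the labels give the mice numbers that do not match across genotypes. Over all probe sets 1 passed with an intensity trend and robust prior and 1 with array weights, and 0 in the other fits. Markers lower in Dp(11)17/+ numbered 2 of the 17 left by the filter on dim probe sets, 4 with array weights and 13 with Dp(11)17/+ replicates 1 and 3 left out. With single mice left out this count ran from 2 to 20, the count at an unadjusted p under 0.05 from 0 to 3, and the median log2 fold change from -0.030 to 0.17. The count at an unadjusted p was 0 without Dp(11)17/+ replicate 3 or +/+ replicate 3, and 1 without Dp(11)17/+ replicate 1. Renormalization, centring and other probe set choices turned 0 of the 30 markers' signs. Array weights turned Fcer1g to 0.039, Olfml3 to 0.050, Cd68 to 0.034 and Fcgr3 to 0.055. That fit gave most weight to Dp(11)17/+ replicate 1, the highest mouse for most markers, at 1.98, against 0.65 to 1.17 for the other mice. With Dp(11)17/+ replicates 1 and 3 left out, C1qc was -0.040, Trem2 -0.043, Siglech -0.13, Selplg -0.0015 and Laptm5 -0.17. With single mice left out 18 of the 30 turned sign in at least 1 fit, over these ranges: Tmem119 -0.00034 to 0.25, Aif1 -0.0032 to 0.23, C1qa -0.016 to 0.21, C1qb -0.030 to 0.23, C1qc -0.095 to 0.19, Ctss -0.030 to 0.13, Trem2 -0.054 to 0.10, Tyrobp -0.087 to 0.23, Fcer1g -0.25 to 0.066, Siglech -0.079 to 0.13, Olfml3 -0.14 to 0.077, Selplg -0.071 to 0.15, Laptm5 -0.050 to 0.18, Cd68 -0.15 to 0.043, Cd14 -0.022 to 0.19, Fcgr3 -0.27 to 0.12, Ptprc -0.33 to 0.45, Spi1 -0.23 to 0.052. The 12 others kept theirs: Cx3cr1 0.039 to 0.40, P2ry12 0.23 to 0.47, P2ry13 0.014 to 0.28, Csf1r 0.18 to 0.30, Itgam 0.025 to 0.16, Fcrls 0.099 to 0.30, Gpr34 0.078 to 0.34, Cd53 0.081 to 0.29, Ly86 0.016 to 0.20, Lyz2 -0.57 to -0.24, Irf8 -0.32 to -0.17, Mpeg1 0.032 to 0.26. The cause of these changes was not tested beyond which mice were left out. Dim markers, 13 of the 30, are limited by signal over background.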
